A study of Mus musculus with 6 samples.

Results

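The weak macrophage PPARγ regions without macrophage factors are places where PPARγ gave a small enrichment in mouse macrophages and where no PU.1, C/EBPβ or adipocyte PPARγ region lay on top of it. They were chosen by measured values: autosomal regions of the authors' longer macrophage PPARγ list that overlapped, by 1 bp or more, no region of the final macrophage PPARγ list, no masked interval, no region of the combined adipocyte PPARγ list, and no macrophage PU.1 or C/EBPβ region. Of 18470 regions in the longer list, 10254 met this rule, 55.5% of the list. In the order of the rule, 342 regions were not on an autosome, 1924 belonged to the final list, 84 met a masked interval, 925 met adipocyte PPARγ and 4941 met PU.1 or C/EBPβ. Those last 4941 regions, called here weak regions with factors, and the 312 autosomal final-list regions free of mask, adipocyte PPARγ and both factors are the classes set beside them.

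PPARγ is a nuclear receptor for fatty acid ligands. It binds DNA as a dimer with RXR, and is known as the master regulator of fat cells and as a regulator of lipid handling and inflammatory genes in macrophages. PU.1, an ETS factor, and C/EBPβ, a leucine-zipper factor, are known to prepare macrophage enhancers to which other factors then bind. Acetylation of lysine 9 of histone H3 (H3K9Ace) is known from active promoters and enhancers.

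The macrophage libraries (PPARγ, PU.1, C/EBPβ and H3K9Ace) came from thioglycollate-elicited peritoneal macrophages of male C57BL/6 mice. The cells were taken 3 days after injection of 1 ml of 3% thioglycollate and after 24 h of adherence, and those of at least 4 animals were pooled for a run. The other libraries, PPARγ and H3K9Ace, came from 3T3-L1 cells, an established mouse preadipocyte line, differentiated to adipocytes. No genetic change or added PPARγ ligand is named for either cell type. Each of the 6 libraries is the only one of its kind, so no value has replicates, the depth is unknown, and every p-value below compares lists of regions and not cell populations. The targets used here are those of the titles and antibody fields. The descriptions give PPARγ as the target of every library.

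By the authors' values the enrichment was low and uniform. The peak height, a signal in whole units, was 6 or 7 at 8423 of the 10254 regions (82.1%), with a median of 7. It stayed below 9, the lowest height in the final list, at 9864 of them (96.2%). The median fold over control was 4.14, with 5% of regions under 2.84 and 5% over 5.06. The median width was 188 bp. Weak regions with factors had a similar fold, with a median of 4.09, and the same median height of 7, but they were wider, at 268 bp. Their upper heights were greater, with a 95th percentile of 10 against 8 without factors. Their median false discovery rate was lower, at 4.15% against 5.49%. Final-list regions without factors had a median fold of 5.69, a median height of 10 and a median width of 211 bp. These values chose the classes, so the gaps between the weak classes and the final list follow from the rule and were not tested.

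**Figure D1:**
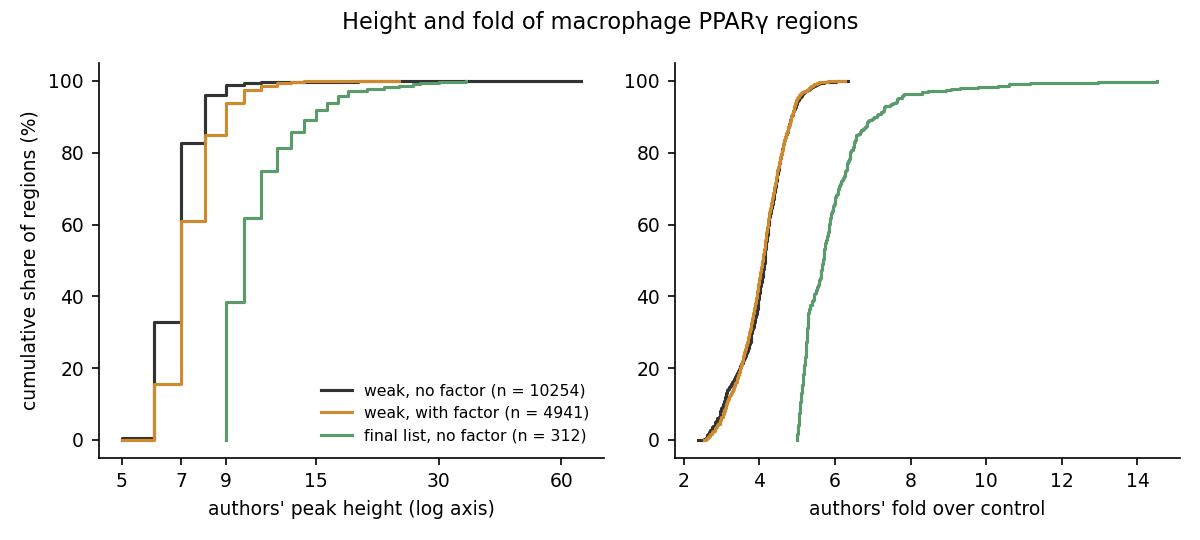
Cumulative share of regions (%) by the authors' peak height (left, log axis) and by the authors' fold over control (right), for weak regions without factors, weak regions with factors and final-list regions without factors. The curves of the weak classes lie together in fold, while 96.2% of the weak regions without factors are under the height of 9 at which the final list starts.

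Every region of the final list had a fold of at least 5 and a false discovery rate of 0.24%, and no weak region had both. Most of the weak regions missed both limits: 9367 of 10254 (91.3%) had a lower fold and a higher rate. Another 262 (2.56%) were at the rate of 0.24% with a fold under 5. The remaining 625 (6.10%) had a fold of 5 or more but a rate between 0.68% and 8.95%. They were narrow, with a median width of 143 bp, and had heights of 6 to 9. The median rate over all 10254 regions was 5.49%, and the highest was 9.67%, which is the authors' own estimate of the share of false calls at that level.

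The regions nearest the fold limit on each side were chosen by fold, then by height, so their likeness in these values follows from the choice. Just under it, with a fold of 4.99, a height of 9 and a rate of 0.24%, were regions on chromosome 2 at 35033445 to 35033631 and 167346513 to 167346766, and also on chromosome 3 at 25732638 to 25732845 (mm8, as for all positions here). Just past it, final-list regions with a fold of 5.0 and a height of 9 lay on chromosome 2 at 131788583 to 131788876 and at 131912441 to 131912670, and on chromosome 7 at 45354938 to 45355141. Of each of these sets of 3, 1 region was acetylated in macrophages. In adipocytes only the weak region at 167346513 was acetylated. The nearest PU.1 edges were 0.267, 1.03 and 1540 kb from the weak regions and 0.949, 0.224 and 1.66 kb from the final-list regions.

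The 6 weak regions with the highest fold all had a height of 8, a rate of 1.27% and a width between 123 and 134 bp. The rule bears on this likeness. It left no weak region with both a fold of 5 or more and the 0.24% rate, and the final list starts at a height of 9. The highest fold, 6.35, was on chromosome 10 at 51143570 to 51143696, inside a macrophage acetylated region and 0.474 kb from PU.1. The next, with a fold of 6.32, lay on chromosome 8 at 109576415 to 109576546 and was acetylated in neither cell type. A fold of 6.29 was found on chromosome 5 at 60601368 to 60601498, which was 2018 kb from the nearest PU.1 region and 224 kb from macrophage acetylation. The region on chromosome 3 at 88228305 to 88228434 (fold 6.28) was acetylated in both cell types and lay 0.101 kb from C/EBPβ. The region on chromosome 16 at 92917870 to 92917993 (6.27) and that on chromosome 9, spanning 115933036 to 115933170 (6.24), were not acetylated in either cell type, although their nearest factor edges were 0.218 and 0.033 kb away. These 6 short regions thus lay both beside macrophage factors and far from them.

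By height, though not by fold, a few regions did not match the word weak. A height of 12 or more was reached by 36 regions, with a median width of 366 bp and rates up to 7.76%. Their folds ran from 2.37 to 4.94 with a median of 3.38, below the 4.14 of the whole class. The rule bears on this, since it left no weak region with both a fold of 5 or more and the 0.24% rate. All weak regions with a fold of 5 or more had heights of 6 to 9. The greatest height, 67, belonged to a region on chromosome 17 at 36092642 to 36093098 with a fold of 4.12. A height of 60 was found on chromosome 10 at 7229365 to 7229673 (fold 3.88), and both of these regions were acetylated in macrophages alone. Heights of 40 and 30, on chromosome 5 at 146565158 to 146565635 (fold 2.56) and at 105167663 to 105168970 (fold 4.60), came without acetylation in either cell type. Of the 36, 19 had a factor edge within 10 kb, against 75.1% of all 10254 weak regions without factors. A masked interval lay within 1000 kb of 3 of the 36, against 3.48% of all. These differences were not tested.

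Acetylation was not used by the rule. Most of these sites did not overlap it: 6722 of 10254 (65.6%) were acetylated in neither cell type. A macrophage acetylated region lay within 1 kb of 41.7% of the 10254 regions and within 10 kb of 70.6%, overlaps included. For adipocyte acetylated regions these shares were 31.4% and 53.0%. Lacking an overlap is thus not the same as lying far from acetylation, and whether such sites sit in active chromatin was not tested. Macrophage H3K9Ace lay at 2750 regions, 26.8% (95% Wilson interval 26.0 to 27.7), against 41.3% of all autosomal regions of the longer list. Adipocyte H3K9Ace lay at 2407 regions, 23.5% (22.7 to 24.3), against 29.7% of all. Both shares were thus below those of the longer list as a whole, which keeps the regions that the rule left out for adipocyte PPARγ or a factor. Acetylated regions cover 2.12% of the autosomes in macrophages and 4.01% in adipocytes, taking each autosome to its furthest listed region, so neither share is as low as that covered length.

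Regions with both marks outnumbered those marked in macrophages alone and those marked in adipocytes alone, but not the 1907 of these groups together. Of the weak regions without factors, 1625 (15.8%) were acetylated in both, 1125 (11%) in macrophages alone and 782 (7.63%) in adipocytes alone. The macrophage share was higher by 3.35 percentage points (exact McNemar test, p = 4.08e-15). This excess lay at regions close to a factor: among the 6623 regions at least 1000 bp from any PU.1 or C/EBPβ edge the difference was -2.16 points, with adipocyte acetylation now the more frequent (exact McNemar test, p = 1.68e-06). Acetylated regions cover more of the autosomes in adipocytes (4.01%) than in macrophages (2.12%), and neither difference was corrected for this. The difference over all regions also moved with the way overlap was counted: it was 9.30 points with centres within 1000 bp and 1.91 with 50% of the region covered. With other sets of regions it was 1.97 points with neighbours within 10 kb counted once and 10.3 at the 0.24% rate alone. The rule left out regions that met adipocyte PPARγ, which bears on the adipocyte share. With the final instead of the combined adipocyte PPARγ list, that share was 25.2% and the difference 2.50 points.

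Weak regions without factors were acetylated in macrophages far less often than weak regions with factors. The classes were not matched for height, width or false discovery rate. The shares were 26.8% without and 61.1% with factors, so that the odds ratio was 0.234 (95% interval 0.217 to 0.251) and the p of Fisher's exact test was too small for double precision. In adipocytes, where PU.1 and C/EBPβ were not mapped, the contrast was smaller, with 23.5% without and 31.0% with factors, giving an odds ratio of 0.682 (interval 0.632 to 0.736, adjusted p = 1.59e-22 by Fisher's exact test). The difference between the cell types was itself tested on regions acetylated in 1 cell type alone. Of these, 59.0% (1125 of 1907) were macrophage-acetylated among regions without factors and 87.7% (1726 of 1967) among regions with factors, giving an odds ratio of 0.201 (interval 0.170 to 0.237, adjusted p = 3.4e-94 by Fisher's exact test). The odds ratio in macrophages was 0.119 without the regions under 1000 bp from a factor, and the cell type difference was then 0.101, against 0.352 with centres within 1000 bp. Adipocyte acetylation was not below that of weak regions with factors beyond error when only the 0.24% rate was kept, with an odds ratio of 0.746 (Fisher's exact test, adjusted p = 0.209, range over all alternatives 0.485 to 0.746).

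Set against final-list regions that also lack the factors, the weak regions differed in macrophage acetylation. Macrophage acetylation was 26.8% in the weak and 33.7% in the final-list regions (28.6 to 39.1), giving an odds ratio of 0.722 (interval 0.566 to 0.927, adjusted p = 0.0114 by Fisher's exact test). At the 0.24% rate alone the odds ratio was 1.18 (Fisher's exact test, adjusted p = 0.572), over 262 weak regions. Adipocyte acetylation was 23.5% in the weak and 22.8% in the final-list regions, and no difference was detectable, with an odds ratio of 1.04 (interval 0.793 to 1.38, adjusted p = 0.839 by Fisher's exact test). The direction turned with the final adipocyte PPARγ list in the rule (0.867, adjusted p = 0.244 by Fisher's exact test). It also turned, at 0.740, when weak regions under 1000 bp from a factor were left out while the final-list regions were kept whole. That odds ratio of 0.740 passed the threshold (adjusted p = 0.0381 by Fisher's exact test). Among regions acetylated in 1 cell type alone, the macrophage share was 59.0% in the weak and 71.8% in the final-list regions, giving an odds ratio of 0.565 (interval 0.326 to 0.95, adjusted p = 0.0275 by Fisher's exact test). At the 0.24% rate alone it was 1.02. Without the weak regions under 1000 bp from a factor, the macrophage odds ratio against the final list was 0.368 and the cell type difference 0.283.

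**Figure D2:**
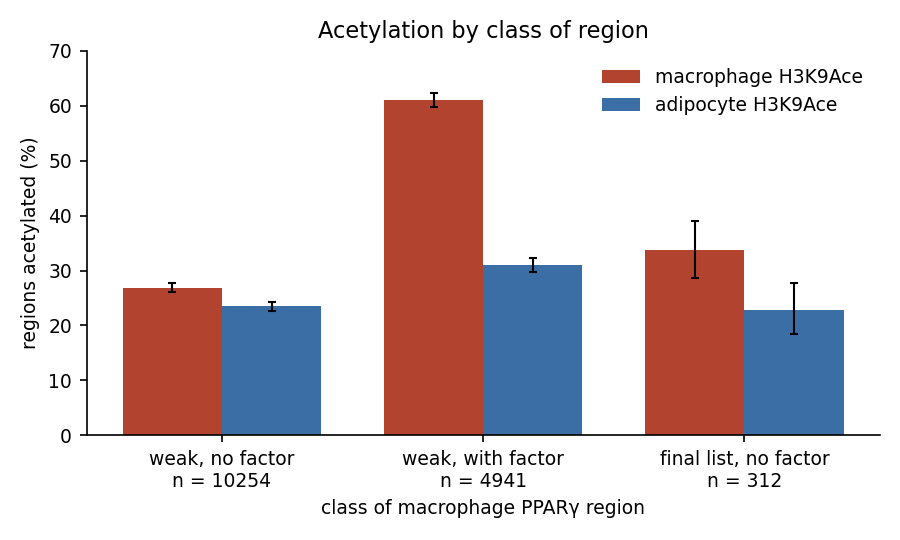
Share of regions (%) overlapping H3K9Ace in macrophages and in adipocytes for each class of macrophage PPARγ region, with 95% Wilson intervals as bars. Weak regions without factors stand at 26.8% in macrophages, below the 61.1% of weak regions with factors, while the adipocyte shares, 23.5% and 31.0%, differ less.

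Lacking an overlap did not mean being far from the factors. PU.1 edges were at a median distance of 3.20 kb, C/EBPβ edges at 6.79 kb. The nearer factor was at a median of 2.30 kb, and 9.94 kb at the upper quartile. A factor edge lay within 1 kb of 3632 regions (35.4%) and within 10 kb of 7703 (75.1%). At the limit set by the rule, 69 regions lay within 10 bp of a factor without overlapping it, and 70 weak regions with factors overlapped one by 10 bp or less. PU.1 was the nearer factor at 67.1% of the regions, from a list of 46356 regions against 24421 of C/EBPβ. Both factors had an edge within 10 kb of 5345 regions (52.1%), PU.1 alone of 1883 and C/EBPβ alone of 475, and 2551 (24.9%) had neither. Final-list regions without factors were about as near, with a median of 1.74 kb to the nearer factor and 77.6% within 10 kb.

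Acetylation followed this distance. Macrophage H3K9Ace lay at 57.8% of the regions whose nearest factor edge was at most 0.1 kb away, and at 44.7% from 0.1 to 1 kb. It lay at 23.5% from 1 to 3 kb, at 15.1% from 3 to 10 kb and at 13.5% from 10 to 30 kb. The share was 9.30% from 30 to 100 kb and 3.48% (2.29 to 5.27) at the 603 regions farther than 100 kb. The nearest bin is thus close to the 61.1% of the regions that overlap a factor, and each step outward was lower in value, with overlapping intervals only between 3 to 10 kb and 10 to 30 kb and between 10 to 30 kb and 30 to 100 kb.

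Adipocyte H3K9Ace spanned a smaller range: 33.1% at most 0.1 kb away, 33.8% from 0.1 to 1 kb, 25% from 1 to 3 kb, 17.5% from 3 to 10 kb, 16.3% from 10 to 30 kb, 14.4% from 30 to 100 kb and 2.49% beyond. The macrophage share therefore exceeded the adipocyte share by 24.7 points in the nearest bin and by 10.9 points in the next. From 1 to 100 kb it was below the adipocyte share in each of the 4 bins, by up to 5.06 points. These shares were not corrected for the larger part of the autosomes that adipocyte acetylated regions cover (4.01% against 2.12%).

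Within 10 kb of a factor 32.4% of the regions were acetylated in macrophages, against 10.1% farther away, giving an odds ratio of 4.25 (interval 3.70 to 4.89, adjusted p = 1.07e-121 by Fisher's exact test). In adipocytes the shares were 27.1% within 10 kb and 12.6% farther away, giving an odds ratio of 2.58 (interval 2.27 to 2.94, adjusted p = 5.65e-55 by Fisher's exact test). Of the regions acetylated in 1 cell type alone, 61.8% were macrophage-acetylated within 10 kb and 33.7% farther away, giving an odds ratio of 3.19 (interval 2.31 to 4.44, adjusted p = 1.63e-13 by Fisher's exact test). Without the regions under 1000 bp from a factor these odds ratios were 2.12, 1.87 and 1.56, and the last was 2.09 with centres within 1000 bp and 5.37 with acetylated regions of at least 1000 bp only. At the 0.24% rate alone the macrophage and adipocyte ratios were 2.65 and 3.84, and the cell type difference was 0.396 (Fisher's exact test, adjusted p = 0.722).

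**Figure D3:**
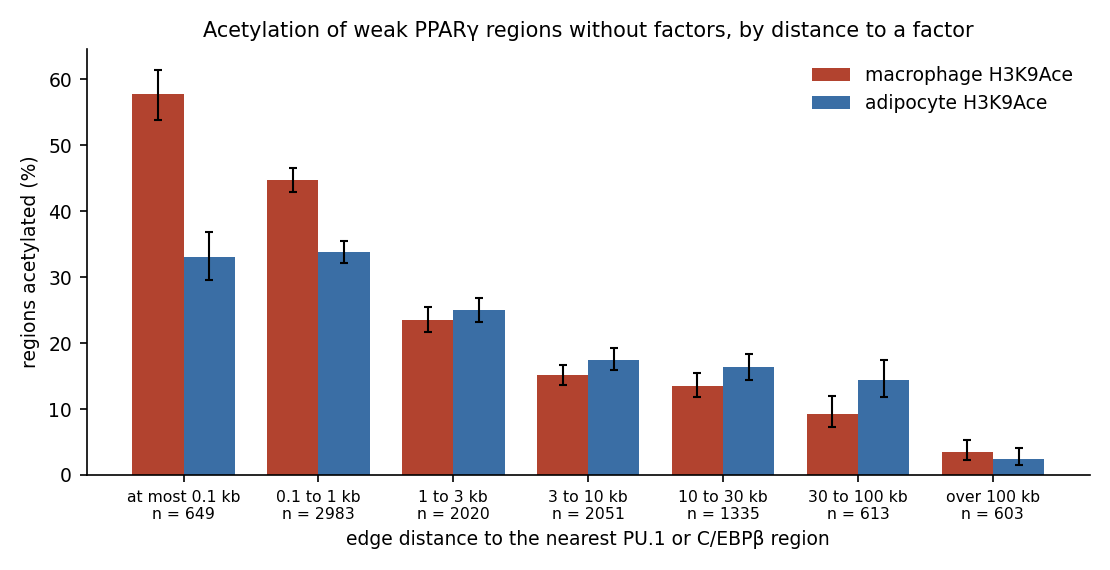
Share of weak regions without factors (%) overlapping H3K9Ace in macrophages and in adipocytes, by edge distance to the nearest PU.1 or C/EBPβ region, with 95% Wilson intervals as bars. The macrophage share is 57.8% in the nearest bin and 3.48% beyond 100 kb, and it exceeds the adipocyte share below 1 kb but not from 1 to 100 kb.

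With both factors within 10 kb, the mark was present at 35.9% of the regions in macrophages and at 27.6% in adipocytes. Where PU.1 alone was that near, the shares were 24.4% in macrophages and 25% in adipocytes. Where C/EBPβ alone was, they were 24.4% (20.8 to 28.5) in macrophages and 29.7% (25.8 to 33.9) in adipocytes. The macrophage share was thus the higher of the pair only where both factors were near, a pattern that was not tested.

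The acetylated regions that held a weak site were broad and often held a factor elsewhere. In macrophages, 2537 of 36757 autosomal acetylated regions (6.90%) contained such a site, and their median width was 2000 bp, against 1050 bp for all acetylated regions. Of the 2750 weak sites acetylated in macrophages, 1801 (65.5%) shared the acetylated region with PU.1 or C/EBPβ, and 175 (6.36%) with a final-list PPARγ region. Of all macrophage acetylated regions, 45.3% held a factor. In adipocytes the 2203 acetylated regions with a weak site had a median width of 3400 bp, against 1000 bp for all, and 62.2% of the 2407 acetylated sites shared theirs with a position bound by a macrophage factor, against 22.6% of all adipocyte acetylated regions that held one. The shares of sites count an acetylated region once for each site in it, while those of all acetylated regions count each once, so they are unlike measures. A wider region is met more often by any site, and that part of these counts was not tested.

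Acetylation was also more frequent at taller regions. Of the 1771 regions above the median height of 7, 34.0% were acetylated in macrophages, against 25.3% of the other 8483, giving an odds ratio of 1.52 (interval 1.36 to 1.70, adjusted p = 2.52e-13 by Fisher's exact test). In adipocytes the shares were 27.8% above the median and 22.6% at or below it, giving an odds ratio of 1.32 (interval 1.17 to 1.48, adjusted p = 5.55e-06 by Fisher's exact test). Among regions acetylated in 1 cell type alone, 65% above the median and 57.5% at or below it were macrophage-acetylated, giving an odds ratio of 1.37 (interval 1.08 to 1.75, adjusted p = 0.0114 by Fisher's exact test). At the 0.24% rate alone, over 262 regions, the macrophage ratio was 1.31 and the adipocyte ratio 0.797 (adjusted p = 0.593 and 0.722 by Fisher's exact test), so the first call was lost and the second turned direction. The cell type difference missed the threshold in 4 of the alternatives, with adjusted p from 0.0537 to 0.392. Width moved with height, from a median of 153 bp at a height of 6 to 248 bp at 9. With a 200-bp window at every centre the first 2 odds ratios were 1.48 and 1.30.

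By height, macrophage acetylation was 16.7% at 5, 21.4% at 6, 27.9% at 7, 33.2% at 8, 38.2% at 9 and 40.5% at 10 or 11. Adipocyte acetylation was 13.3% at 5, 19.3% at 6, 24.8% at 7, 28.1% at 8, 28.9% at 9 and 27.0% at 10 or 11. The 36 tallest regions had lower shares than those of 10 or 11 in height, although the intervals overlap, with 19.4% (9.75 to 35.0) acetylated in macrophages and 8.33% (2.87 to 21.8) in adipocytes.

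**Figure D4:**
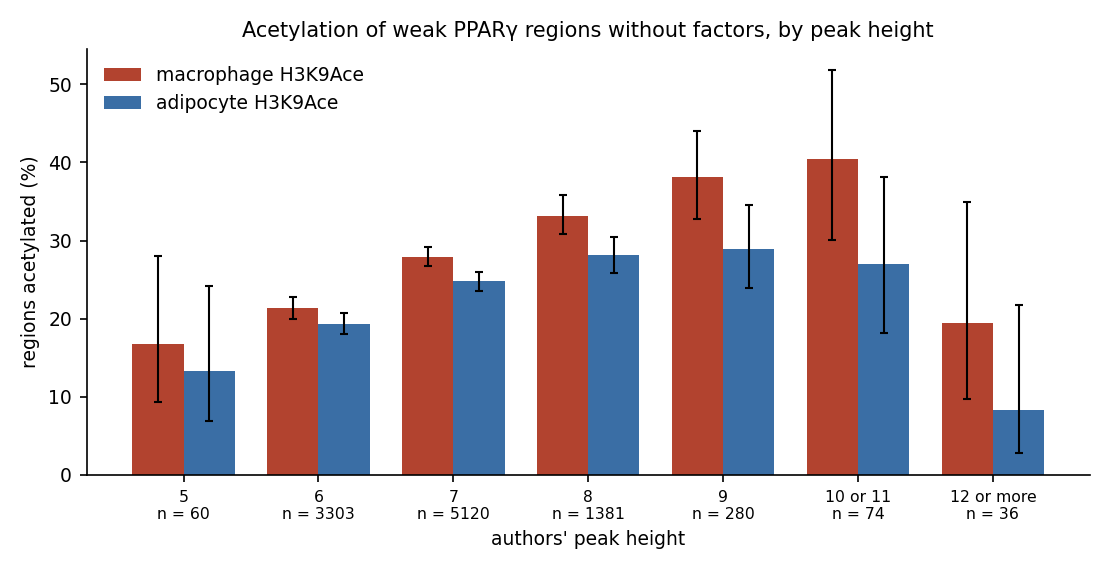
Share of weak regions without factors (%) overlapping H3K9Ace in macrophages and in adipocytes, by the authors' peak height, with 95% Wilson intervals as bars. The macrophage share goes up to 40.5% at a height of 10 or 11 and is 19.4% at the 36 regions of 12 or more.

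No autosome held detectably more or fewer of the weak sites than of those with factors. Their share per autosome lay between 2.42% (chromosome 18) and 9.67% (chromosome 2). Of 19 Fisher's exact tests against weak regions with factors, 0 passed an adjusted p of 0.05 (0%), and 0 passed it unadjusted, the lowest p being 0.0657. The odds ratios lay between 0.890 and 1.15.

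On a finer scale they came in part in runs. The median edge distance to the nearest other region of the class was 22.7 kb, and 658 regions (6.42%) had such a neighbour within 1 kb. Weak regions with factors lay closer to their own kind, with a median of 17.3 kb and 14.9% within 1 kb, so the spacing is not particular to regions without factors. Joining neighbours at most 10 kb apart left 6795 regions alone and put 3459 (33.7%, against 40.6% of the weak regions with factors that had such a neighbour) in 1422 runs of 2 or more, of which 383 held at least 3 and 51 at least 5. The nearest final-list PPARγ region was at a median of 188 kb, and 1146 regions (11.2%) had one within 10 kb, against 19.8% of the weak regions with factors.

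Regions in longer runs had a higher macrophage share, and the same adipocyte share as regions standing alone. In runs of 3 or more, 37.1% (34.6 to 39.7) were acetylated in macrophages and 22.3% in adipocytes. Pairs had 32.7% in macrophages and 28.2% in adipocytes. Regions standing alone had 22.9% (21.9 to 23.9) in macrophages and 22.3% in adipocytes. These shares were not tested, since neighbours can share an acetylated region.

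The longest run, by number of regions and not by span, had no factor near it at all. It held 13 weak regions over 35.7 kb of chromosome 3, from 25711434 to 25747126, with heights of 6 to 10 and folds of 2.74 to 4.99. No PU.1, C/EBPβ, final-list PPARγ or adipocyte region of either kind lay within it, and its region at 25732638 was 1540 kb from the nearest PU.1 region. Macrophage H3K9Ace formed 2 regions there, which met 3 of the 13.

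The next runs each held PU.1 and C/EBPβ regions within their span, in differing numbers. On chromosome 3 from 95579714 to 95636473, 12 weak regions stood between 12 PU.1 and 5 C/EBPβ regions, with 7 acetylated in macrophages and 0 in adipocytes. On chromosome 1 from 90091941 to 90122209, 11 weak regions stood beside 2 PU.1 and 2 C/EBPβ regions, with 5 acetylated in each cell type, 413 kb from a masked interval. On chromosome 19 from 38075840 to 38108161, 9 weak regions lay among 5 PU.1 and 3 C/EBPβ regions, with 8 acetylated in macrophages and 3 in adipocytes. Of these 4 runs, 3 thus had more members acetylated in macrophages than in adipocytes.

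**Figure D5:**
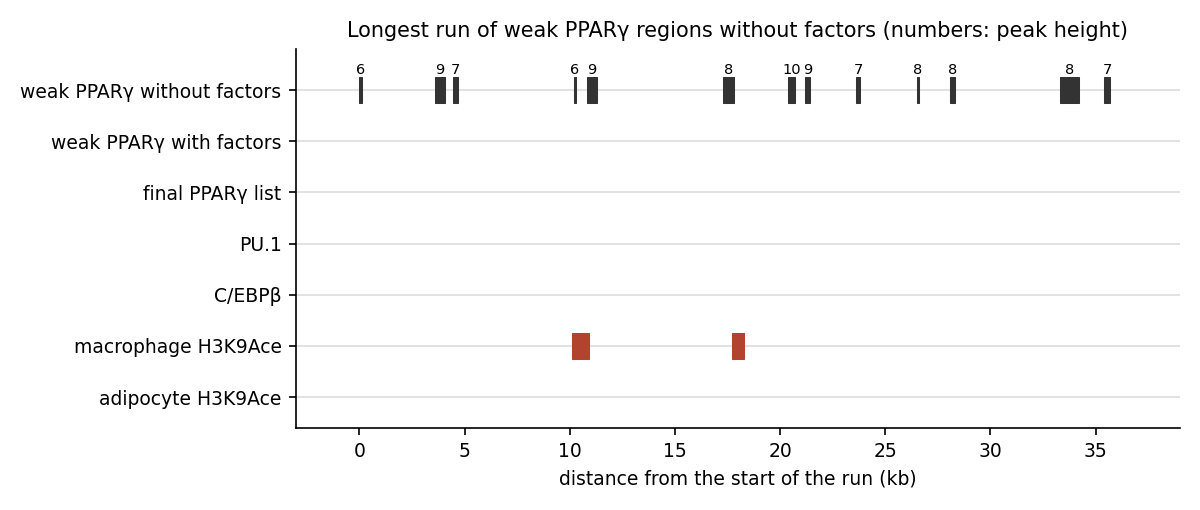
Map of the longest run (by number of regions) of weak regions without factors, in kb from the start of its leftmost region, with peak heights above the regions and 1 lane per list. The 13 weak regions spread over 35.7 kb with 2 macrophage acetylated regions and nothing in the PU.1, C/EBPβ, final PPARγ or adipocyte H3K9Ace lanes.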

How the data were processed

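The authors aligned 36-bp reads to mm8 with ELAND (2 mismatches at most, unique best match), per the labels' protocols, and the macrophage PPARγ data joined 2 runs. Which control library and caller settings were used is not given in the sources used here. The deposited lists give positions, treated as half-open intervals. Counting touching regions as overlapping would leave 10251 members. The 2 macrophage PPARγ lists also carry a fold (a ratio), a peak height (a signal) and a false discovery rate, read as a percent because it exceeds 1, per the file headers. All 1961 final regions recur in the longer list. The 20 repeated rows of the adipocyte H3K9Ace list were counted once.

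Classes were built by overlap of at least 1 bp and compared by Fisher's exact test, 2-sided (odds ratios are sample values, their 95% intervals exact conditional ones), adjusted by Benjamini-Hochberg over 12 tests (8 of single marks, 4 of cell type differences), or over 19 autosomes. The marks of the cell types were set against each other by an exact McNemar test. Intervals and tests cover counting error only and treat regions of 1 library as independent. Named regions were the 6 of highest fold, the next 4 by height, the 3 on each side of the fold limit and the 4 runs with the most members. Members, classes and named groups were chosen with earlier results of these data known. Results were recomputed under 9 other settings, of which the 200-bp window was chosen after seeing the data. Python 3.11.15, pandas 2.3.3 and scipy 1.17.1 were used, and the interval code and tests were tested on simulated data.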

Additional observations from a re-analysis of the deposited data

Results flagged for a closer look

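The balance of macrophage against adipocyte acetylation, taken over regions acetylated in 1 cell type alone, differed between classes in all 4 comparisons by Fisher's exact test. The odds ratio of macrophage over adipocyte acetylation was 0.201 for weak regions without factors over weak regions with factors, and 0.565 for weak regions without factors over final-list regions without factors. Within the weak regions without factors it was 1.37 for those above the median height over the rest, and 3.19 for those within 10 kb of a factor over those farther away.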

How the results depend on the processing

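Of 117 values of 13 tests under 9 alternatives, 104 kept their direction and their side of the threshold, and 13 did not. Leaving out regions under 1000 bp from a factor turned the macrophage minus adipocyte difference to -2.16 points, the adipocyte odds ratio against final-list regions to 0.740 (those were not trimmed), and left the cell type difference by height at 1.41 without a call. That last difference was also lost with centres within 1000 bp (1.18) and with 50% of the region covered (1.25). With the final adipocyte PPARγ list the adipocyte odds ratio against final-list regions was 0.867. At the lowest false discovery rate, which left 262 members, the adipocyte ratio against weak regions with factors was 0.746, the macrophage ratio and the cell type difference against final-list regions were 1.18 and 1.02, the height ratios were 1.31 in macrophages, 0.797 in adipocytes and 3.15 for their difference, and the cell type difference by distance was 0.396. The cause was not tested. The share of members acetylated lay between 15.7% and 37.4% in macrophages and between 16.8% and 27.1% in adipocytes, against 26.8% and 23.5% as reported. The number of autosomes past the threshold was 0 in all 5 alternatives that could move it. Samples could not be paired because each group holds 1 library, and the McNemar test paired only the marks at each region. The depth of the libraries is unknown, so absent overlap at heights of 6 or 7 cannot be told apart from missed regions in the other lists.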
